A study of Mus musculus with 17 samples.

Results

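The 34 genes described here lie on mouse chromosome 12 outside the DLK1/DIO3 domain, 10 of them before Dlk1 and 24 after Dio3. They were taken from a fixed list of protein-coding genes within about 2 Mb of either edge of the domain. The list leaves out other genes of that window, such as Slc25a47. The symbols of the listed genes matched 34 of the 55536 gene identifiers in the files. Measured from the annotated edges of Dlk1 and Dio3, the nearest was Ppp2r5c at 0.166 Mb and the farthest Ppp1r13b at 1.547 Mb. The libraries came from collagenase-isolated hepatocytes of C57BL/6J mice, 3 months old, of the genotype ApcDHep. AAV8 had delivered SaCas9 constructs to every mouse 1 month earlier, and tamoxifen is listed as 2 mg for 7 days. The group DLK1DWRE was edited at an upstream site of the domain that binds β-catenin, and is called WRE-edited here (6 RNA-seq libraries). The group ROSA26, the control, was edited at the Rosa26 locus and is called Rosa26-edited (5 RNA-seq libraries). Both groups therefore share the Apc loss, the vector, the nuclease and tamoxifen. The labels give neither the share of cells edited, nor the coordinates of the edited site, nor the promoter behind the deletion of Apc.

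ApcDHep hepatocytes lack Apc, which normally marks β-catenin for destruction, so β-catenin can enter the nucleus and act with TCF/LEF factors at DNA sites known as Wnt-responsive elements. The DLK1/DIO3 domain is an imprinted cluster, in which the long non-coding RNAs, small nucleolar RNAs and microRNAs come from the maternal chromosome and the protein-coding genes mainly from the paternal one. Regulatory elements can act on genes beyond their nearest neighbour. The comparison asked whether their RNA differed when the element was edited.

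Library totals were between 20727036 and 38935135 expected counts, and the 34 genes together held 0.102% to 0.157% of them. The labels name 3 runs: r770 with 3 WRE-edited and 3 Rosa26-edited libraries, r595 with 1 and 2, and r711 with 2 WRE-edited libraries alone. Fold changes carry a term for the run, so they rest on r770 and r595, and the r711 libraries add to the estimate of the spread alone. Group means below include r711. Mitochondrial ribosomal RNA made up 2.29% to 3.00% of the counts in r595 and 19.02% to 29.09% elsewhere. Hepatocyte markers summed to 13510 to 21560 TPM (a level per transcript length) in WRE-edited libraries and 15200 to 31780 TPM in Rosa26-edited ones. All 6 macrophage markers were detected, at 55.0 to 118 TPM against 69.2 to 345 TPM, while all 6 lymphocyte markers stayed below 1 TPM in every library. In the domain itself Meg3, Rtl1, Rian and Mirg had log2 fold changes of -2.23 to -2.46, of which Rian alone passed the threshold (edgeR adjusted p = 0.0188), with no gene passing in 6 of the 11 fits that left out 1 library, while Dlk1 and Dio3 had too few counts to be tested. The labels do not say that libraries came from separate animals, so a p-value speaks of the spread among libraries alone, which may be technical.

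Of the 34 flanking genes, 30 passed the filter on low counts and were tested, and 0 differed between WRE-edited and Rosa26-edited hepatocytes in edgeR's quasi-likelihood test after adjustment over all 14393 genes. Across all genes 0.00695% were called, which is 1 gene, so the 0 here is near the background. DESeq2 also called 0 of the 30, where it called 0.563% of all genes. At an unadjusted p under 0.05 there was 1 of 30, Yy1, against 10.1% of all genes tested. It was on the higher side, where 4.95% of all genes were, and 0 of the 30 were on the lower side, where 5.14% were. The median log2 fold change of the 30 was 0.03, with 19 positive and 11 negative, and the median over all genes was 0.01. The 30 values ran from -0.52 to 0.65. A change beyond 0.5 in size was seen in 6.67% of them and in 14.4% of all genes. In 0 of the 34 genes did the CPM (counts scaled to library size with TMM factors) of the groups fail to overlap, against 0.375% of all genes tested.

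**Figure D1:**
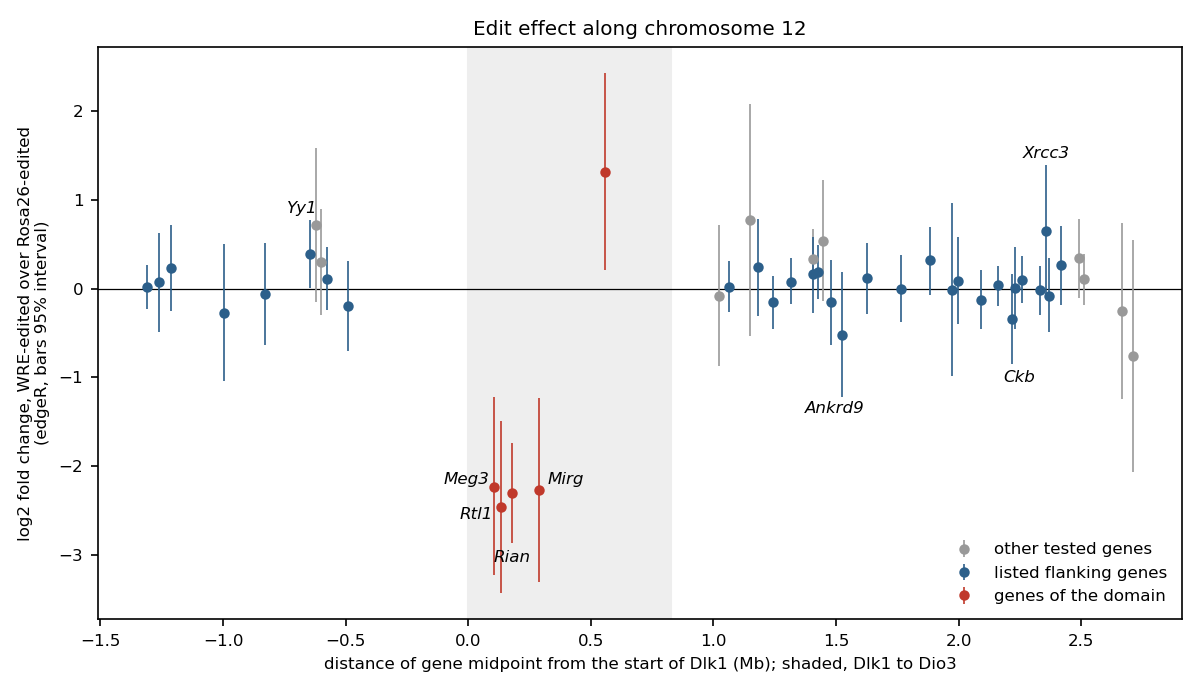
The log2 fold change of each tested gene (y axis, WRE-edited over Rosa26-edited, bars 95% intervals) is plotted against the distance of its midpoint from the start of Dlk1 (x axis, Mb), with the span from Dlk1 to Dio3 shaded. The 30 listed flanking genes (blue) lie between -0.52 and 0.65 and 10 other tested genes of the window (grey) between -0.76 and 0.77, while Meg3, Rtl1, Rian and Mirg (red) lie between -2.23 and -2.46; the red point above 0 is Gm34667.

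The width of the intervals sets what these libraries could have shown. The median half-width of a 95% interval was 0.42 on the log2 scale. Of the 30 intervals, 27 lay wholly between -1 and 1, that is within a 2-fold change either way. So did 10432 of the 14393 intervals over all genes tested. The 3 of the 30 that reached beyond were those of Eml1 (down to -1.04), Ankrd9 (down to -1.22) and Xrcc3 (up to 1.39). All 3 genes were below 2 CPM on average. Every one of the 30 intervals lay above -2, as did 13781 of the 14393. Intervals within -0.5 and 0.5 were reached by 13 of the 30 genes, and those of the other 17 reached beyond. Over all genes tested 4584 had such an interval.

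**Figure D2:**
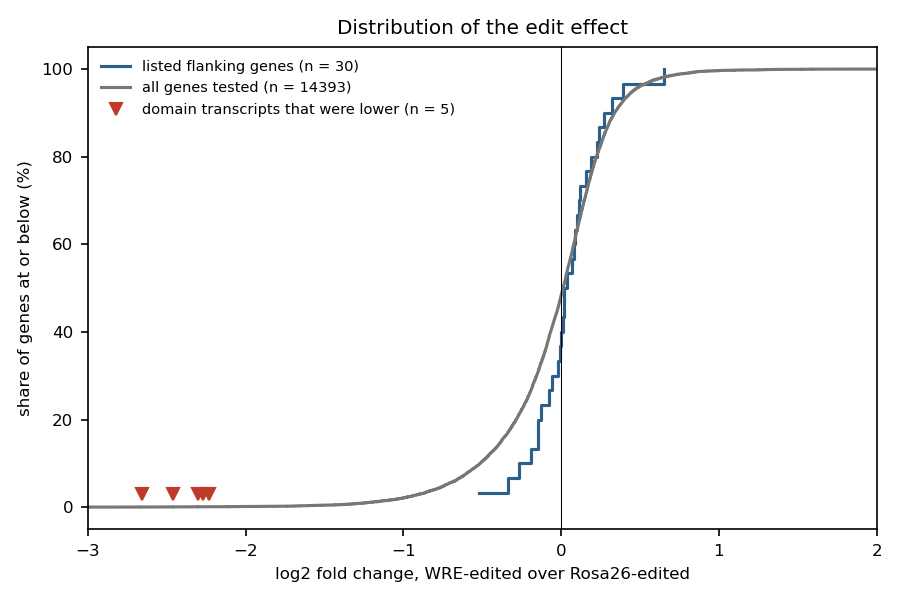
Cumulative share of genes (y axis, %) at or below a given log2 fold change (x axis, WRE-edited over Rosa26-edited). The curve of 30 flanking genes (blue) crosses the curve of 14393 tested genes (grey) near 0 and has no member below -0.52, while the 5 domain transcripts that were lower (triangles) lie between -2.23 and -2.66.

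Genes listed under transcription and chromatin were all on the positive side, 5 of 5, with a median log2 fold change of 0.12. None of them passed the adjusted threshold, and leaving out 1 library could change the sign of Setd3, Ccnk and Rcor1. Over all genes tested 51.7% were positive, the share to set beside the sign counts of each role. Yy1 encodes a zinc finger transcription factor that can activate or repress its targets and takes part in loops between enhancers and promoters. It lies at 108792945 to 108820148 of chromosome 12 (GRCm38.p6), 0.632 Mb before Dlk1. Its CPM was 28.6, 50.0 and 32.5 in WRE-edited 1, 2 and 3 of r770, 27.3 and 26.5 in WRE-edited 4 and 5 of r711, and 40.5 in WRE-edited 6 of r595. In Rosa26-edited libraries it was 27.6, 24.0 and 35.8 in 1, 2 and 3 of r770, and 32.3 and 25.6 in 4 and 5 of r595. WRE-edited 2 and 6 stood above every Rosa26-edited library, and the other 4 lay within the Rosa26-edited range. The log2 fold change of Yy1 was 0.39 ± 0.18 (SE; 1.31-fold; 95% interval 0.01 to 0.77; edgeR adjusted p = 0.479, unadjusted p = 0.0454). The exact permutation test within runs, two-sided over 60 assignments of 9 libraries with a smallest possible p of 0.0167, gave Yy1 p = 0.133. Without WRE-edited 2 the log2 fold change of Yy1 was 0.22 (edgeR adjusted p = 0.587).

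The Yy1 promoter is printed because it belongs to the single gene at an unadjusted p under 0.05, and it is a CpG-rich stretch. It runs 5′ to 3′ on the plus strand from RefSeq (GRCm38.p6), chr12:108793047-108793346, 300 bases around the start site of the promoter entry. The stretch begins after the annotated start of the gene, 108792945. It is all in lower case since neither motif searched, the TCF/LEF core CTTTGA or the YY1 core CCATNTT, occurs in it on either strand.
Yy1: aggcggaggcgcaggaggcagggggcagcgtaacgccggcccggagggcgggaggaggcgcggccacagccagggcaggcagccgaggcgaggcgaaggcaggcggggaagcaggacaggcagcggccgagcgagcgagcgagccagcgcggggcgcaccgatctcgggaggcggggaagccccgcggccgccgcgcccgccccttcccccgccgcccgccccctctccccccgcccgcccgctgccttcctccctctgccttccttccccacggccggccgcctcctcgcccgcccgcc
This stretch has 81.0% G and C and 42 CpG pairs, against medians of 52.7% and 7 over all 32851 promoters in the RefSeq table.

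The other genes of this role had smaller differences. Setd3, an enzyme that methylates actin on histidine and lies farthest out on the Dlk1 side, had 69.5, 74.8 and 89.9 CPM as the lowest, median and highest of the WRE-edited libraries, against 81.4, 86.7, 85.1, 72.2 and 74.7 CPM in Rosa26-edited 1 to 5. Its log2 fold change was 0.02 ± 0.11 (edgeR adjusted p = 0.957), with a 95% interval of -0.23 to 0.27, among the narrowest. Setd3 shares a short overlap with Ccnk, and no source used here says whether strand was used in counting. Ccnk, the cyclin partner of kinases that phosphorylate RNA polymerase II, had 0.07. Rcor1, a scaffold of the CoREST repressor complex, had 0.12 and the zinc finger gene Zfp839 had 0.16, while Zfp839 had -0.24 without the run term.

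The genes next to the domain were then taken in order of distance. On the Dlk1 side Begain, which encodes a protein of the postsynaptic density and is the nearest at 0.384 Mb, had 0 counts in all 6 WRE-edited libraries and 0 in 4 of 5 Rosa26-edited ones, with 3 counts in Rosa26-edited 4. Wdr25, a WD repeat gene at 0.424 Mb (108894152 to 109028454), had 1.88, 2.54 and 2.93 CPM as the lowest, median and highest of WRE-edited libraries, against 2.56, 3.72, 2.28, 2.55 and 1.87 CPM in Rosa26-edited 1 to 5. The groups overlapped, with Rosa26-edited 2 alone above every WRE-edited library. Its log2 fold change was -0.19 ± 0.23 (edgeR adjusted p = 0.779), and -0.03 without Rosa26-edited 2. Wars, the tryptophanyl-tRNA synthetase gene at 0.558 Mb (108860030 to 108894175), had 12.04, 13.0 and 16.5 CPM in WRE-edited libraries by the same summary, against 12.9, 15.7, 14.3, 7.84 and 12.5 CPM in Rosa26-edited 1 to 5. The log2 fold change of Wars was 0.11 ± 0.16 (edgeR adjusted p = 0.814).

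On the Dio3 side Ppp2r5c encodes a regulatory subunit of protein phosphatase 2A, which steers the enzyme to its substrates. At 0.166 Mb (110447144 to 110583075) it was the listed gene closest to the domain. It had 27.6, 31.6 and 33.5 CPM as the lowest, median and highest in WRE-edited libraries, against 29.2, 34.5, 30.9, 21.6 and 31.6 CPM in Rosa26-edited 1 to 5. Apart from the low Rosa26-edited 4, all libraries lay within a narrow band. The log2 fold change of Ppp2r5c was 0.02 ± 0.13 with a 95% interval of -0.26 to 0.31 (edgeR adjusted p = 0.963). Dync1h1, the heavy chain of the microtubule motor dynein at 0.320 Mb (110601395 to 110666944), had 162, 205 and 322 CPM in WRE-edited libraries by the same summary, against 171, 113, 274, 265 and 238 CPM in Rosa26-edited 1 to 5. Its log2 fold change was 0.24 ± 0.25 (edgeR adjusted p = 0.739), but 0.03 without WRE-edited 2, 0.06 without Rosa26-edited 2 and 0.49 without Rosa26-edited 3. Hsp90aa1, the stress-inducible form of the chaperone HSP90 at 0.410 Mb (110691036 to 110696395), had 372, 399 and 470 CPM in WRE-edited libraries, against 394, 531, 389, 455 and 500.2 CPM in Rosa26-edited 1 to 5. The log2 fold change of Hsp90aa1 was -0.15 ± 0.14 (edgeR adjusted p = 0.699). At 151 TPM on average it was the most abundant of the 34 per length. Its expected counts were not whole in 10 of 11 libraries (beyond a tolerance of 0.001), since RSEM shares reads that also fit other genes, so part of its count may belong to near-identical copies. Among the genes given in full, counts were also not whole for Setd3 and Dync1h1 in 11 libraries, Ckb in 10 and Eif5 in 8.

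**Figure D3:**
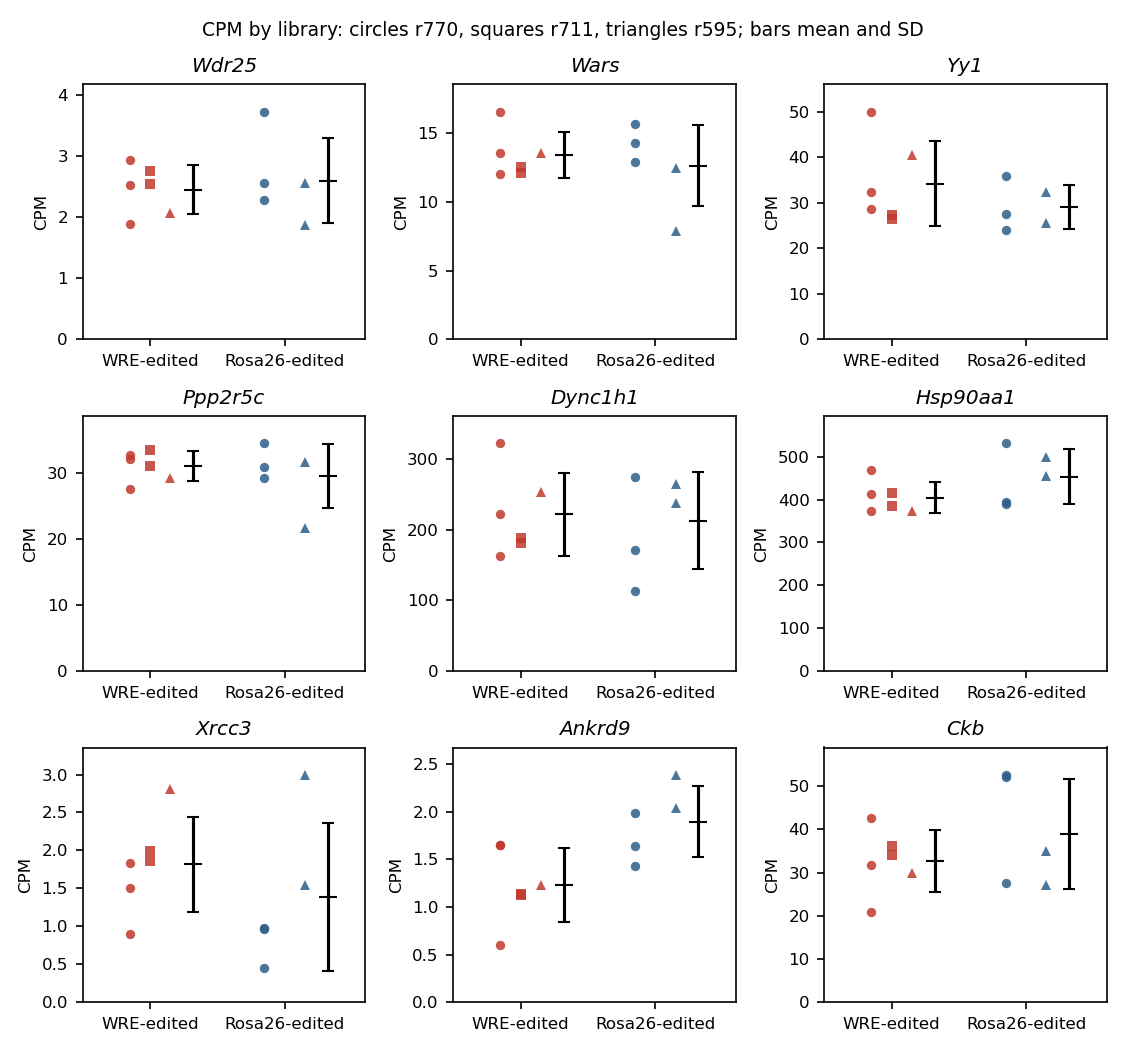
CPM (y axis, from 0) of 9 flanking genes in each WRE-edited (left, red) and Rosa26-edited (right, blue) library, with the mean and SD of each group as black bars; circles are r770, squares r711 and triangles r595. The groups overlap in every panel, and for Ankrd9 most WRE-edited libraries lie below the Rosa26-edited ones.

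Translation, RNA and chaperone genes split 3 positive and 3 negative, with a median log2 fold change of -0.06. Eif5, an initiation factor needed for start codon selection (111538101 to 111546753), had 103, 132 and 168.2 CPM as the lowest, median and highest in WRE-edited libraries, against 173, 146, 117, 102 and 108 CPM in Rosa26-edited 1 to 5. High and low values were present in both groups, and the log2 fold change was -0.13 ± 0.15 (edgeR adjusted p = 0.779). At 43.5 TPM Eif5 was second in abundance per length, ahead of Setd3 at 23.1 TPM. Bag5, a co-chaperone of HSP70, had 0.10 with an interval of -0.16 to 0.37, and the tRNA methyltransferase gene Trmt61a had 0.01.

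Both tested genes of metabolism were on the negative side, and neither passed. Ankrd9, an ankyrin repeat gene at 110976420 to 110979082 that is expressed at a low level, had the lowest log2 fold change of the list, -0.52 ± 0.33 (95% interval -1.22 to 0.19; edgeR adjusted p = 0.587). Its CPM was 1.65, 0.607, 1.65, 1.14, 1.13 and 1.23 in WRE-edited 1 to 6, against 1.64, 1.98, 1.43, 2.03 and 2.39 in Rosa26-edited 1 to 5. WRE-edited 2, 4, 5 and 6 lay below every Rosa26-edited library, while WRE-edited 1 and 3 lay within their range. Without WRE-edited 2 the log2 fold change of Ankrd9 was -0.30, and the exact permutation test within runs gave p = 0.150. Ckb, the brain-type creatine kinase that buffers ATP (111669355 to 111672338), had 21.0, 33.0 and 42.6 CPM as the lowest, median and highest in WRE-edited libraries, against 52.7, 52.1, 27.5, 27.2 and 35.1 CPM in Rosa26-edited 1 to 5. Rosa26-edited 1 and 2 stood above all other libraries. The log2 fold change of Ckb was -0.34 ± 0.23 (edgeR adjusted p = 0.609), and -0.18 without WRE-edited 2.

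Both genes of DNA replication and repair were on the positive side. Xrcc3, a gene of DNA repair by homologous recombination (111803192 to 111813893), had the highest log2 fold change of the list, 0.65 ± 0.34 (95% interval -0.09 to 1.39; edgeR adjusted p = 0.531). Its CPM was 1.83, 0.897, 1.51, 2.00, 1.86 and 2.81 in WRE-edited 1 to 6, against 0.982, 0.458, 0.963, 3.00 and 1.54 in Rosa26-edited 1 to 5. Within r770 WRE-edited 1 and 3 stood above all 3 controls, and in r595 the WRE-edited library lay between the controls. Xrcc3 overlaps the end of Klc1, so reads of the shared stretch cannot be assigned with certainty without the strand setting. Cinp, which encodes a protein that binds cyclin-dependent kinase complexes at replication origins, had 0.19 with an interval of -0.12 to 0.49.

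Among genes of signalling and scaffolds 7 of the 8 tested were positive, with a median log2 fold change of 0.06 and 0 past the threshold. Cdc42bpb, a kinase that acts downstream of the GTPase CDC42 on myosin, had 0.32 ± 0.18 (edgeR adjusted p = 0.551), and 0.18 without Rosa26-edited 2. Ppp1r13b, which encodes the p53-binding protein ASPP1, had 0.27 ± 0.20, and 0.11 without Rosa26-edited 2. Wdr20, a cofactor of deubiquitinases, and the microtubule affinity-regulating kinase Mark3 had 0.08 and 0.04, each with intervals inside ±0.5. Traf3, a brake on non-canonical NF-κB signalling, had 0.00, a value above 0 only past the second decimal that is counted among the positive ones. Zfyve21, an endosomal protein gene, had -0.08. Tnfaip2, a gene induced by tumour necrosis factor, had 0.09 with the run term but -0.43 without it.

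Tnfaip2 had 10.8, 14.6, 16.2, 7.04, 6.67 and 18.9 CPM in WRE-edited 1 to 6, against 12.2, 11.1, 10.7, 15.7 and 33.9 CPM in Rosa26-edited 1 to 5. Rosa26-edited 5 stood apart from all other libraries. The same library had the highest CPM of the 11 for Evl, Traf3 and Ankrd9 too, 4 of 30 in all (13.3%), near the 12.5% over all genes tested. Its 6 macrophage markers summed to 345 TPM, against 55.0 to 119 TPM in the other 10 libraries. The part of macrophage RNA in the values of these genes was not tested, and in such bulk libraries fewer cells of a type and less RNA per cell cannot be told apart.

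Genes of the cytoskeleton and of transport had 2 positive and 5 negative values, with a median log2 fold change of -0.02. Ccdc85c, a gene of epithelial cell junctions, had 0.23 ± 0.22, but 0.08 without Rosa26-edited 2 and 0.00 without the run term. Eml1, a microtubule-binding protein gene, had -0.27 ± 0.36, but 0.14 without the run term. Tecpr2, which acts in autophagy, had -0.15, and Evl, an actin elongation factor of the Ena/VASP family, had -0.06. Klc1, the light chain of the motor kinesin, had -0.02 with an interval of -0.30 to 0.26, and Exoc3l4, an exocyst-like gene, had -0.01 with an interval of -0.98 to 0.96.

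The other 4 genes did not reach the filter and have no test of the difference between groups. Begain had 3 counts in all, as above. Degs2, a desaturase and hydroxylase of sphingolipids, had 20 counts over the 11 libraries. Amn, a partner of cubilin in vitamin B12 uptake, had 34, and the protein kinase gene Mok had 82, its CPM running from 0.140 to 0.482 in WRE-edited libraries and from 0.0305 to 0.428 in Rosa26-edited ones. At such counts a difference was not detectable.

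**Figure D4:**
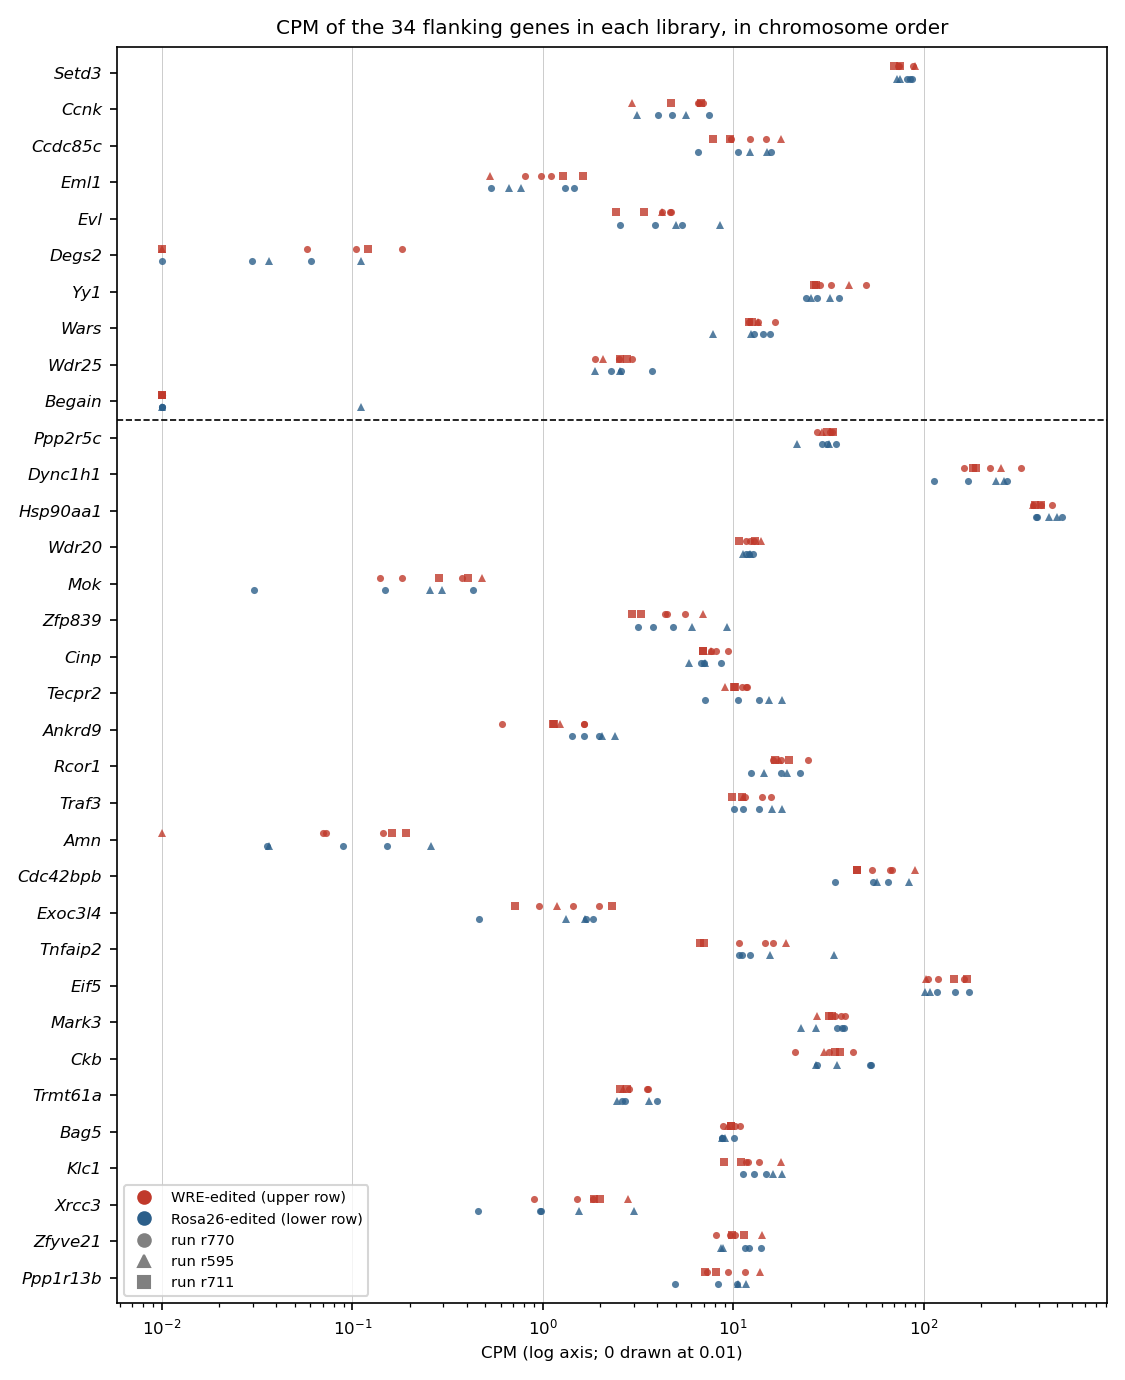
CPM (x axis, log scale, 0 drawn at 0.01) of all 34 flanking genes in chromosome order, WRE-edited libraries (red) above Rosa26-edited ones (blue) for each gene, with circles for r770, triangles for r595 and squares for r711; the dashed line marks the DLK1/DIO3 domain. Levels span from 0 for Begain to 531 CPM for Hsp90aa1, and the groups overlap in every row.

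The difference between groups was then compared within the runs that held both. In r770 the median difference of log2 CPM over the 30 genes was 0.14, within a range of -0.47 to 0.78. In r595 it was 0.03, within a range of -0.87 to 0.69, from 1 WRE-edited and 2 Rosa26-edited libraries. The sign was the same in both runs for 16 of the 30 genes (53.3%), against 60.9% of all genes tested. Across the 30 genes the values of the runs had a Pearson correlation of 0.05, a description over genes, which are not independent replicates. Yy1 had 0.32 and 0.49, Xrcc3 0.78 and 0.37, and Ankrd9 -0.46 and -0.81 in r770 and r595, so these 3 genes had the same sign in both runs. The groups failed to overlap in the same direction within both runs for 0 of the 30, against 4.31% of all genes. Zfyve21 had -0.43 in r770 and 0.69 in r595. Its CPM was 9.63, 8.07 and 10.2 in WRE-edited libraries of r770, against 14.01, 11.6 and 12.1 in Rosa26-edited ones. In r595 it was 14.1 against 8.88 and 8.63, so within each run the groups did not overlap, in opposite directions. The share of all genes tested with such a pattern is not given here, so it is not read as particular to Zfyve21. In edgeR the interaction of edit and run gave Zfyve21 an unadjusted p of 0.00316 and an adjusted p of 0.572. For Tecpr2 and Traf3 the unadjusted p of the interaction was 0.0325 and 0.0329. These 3 of the 31 flanking genes tested for it, which include Mok since the filter was run on the 9 libraries of r770 and r595, had an unadjusted p under 0.05, against 6.52% of all genes, and 0 of the 31 passed the adjusted threshold, as for all genes (0%). With 1 WRE-edited library in r595 this does not show that the runs were alike.

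**Figure D5:**
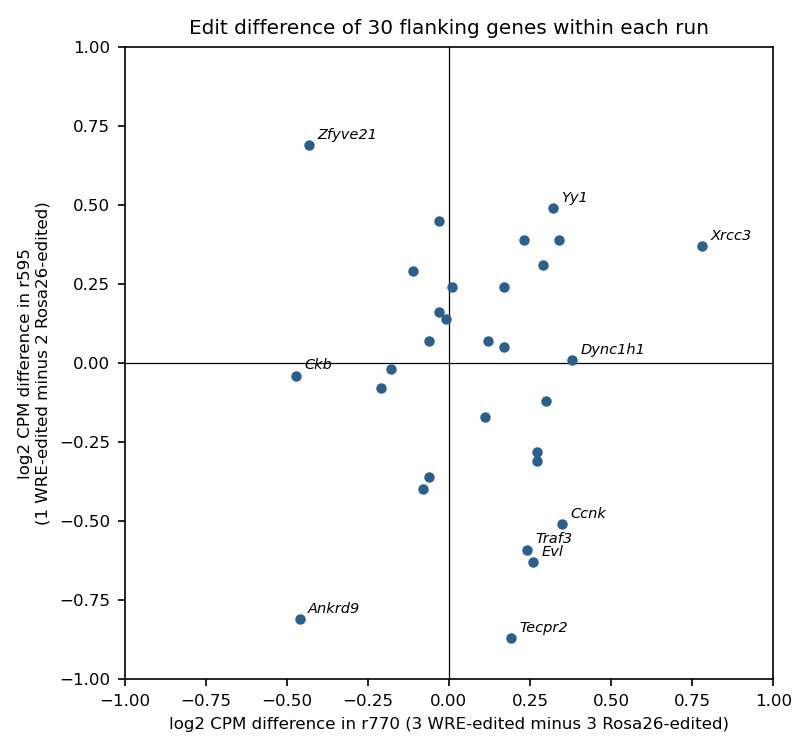
Difference of log2 CPM (WRE-edited minus Rosa26-edited) of 30 flanking genes within run r770 (x axis) and within run r595 (y axis). Yy1 and Xrcc3 lie in the upper right and Ankrd9 in the lower left, while Zfyve21 lies in the upper left and Tecpr2, Evl, Traf3 and Ccnk in the lower right.

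More flanking genes passed the adjusted threshold between runs than between the groups, as did more of all genes tested (16.2% against 0.00695%). The share of the 30 that differed between runs was near that of all genes. Against r770, r595 was higher for Xrcc3 (log2 difference 1.31), Tnfaip2 (0.88), Zfp839 (0.81) and Klc1 (0.45) and lower for Mark3 (-0.50), 5 of 30 in edgeR at adjusted p from 0.0107 to 0.0373, against 16.2% of all genes tested (7.11% higher and 9.07% lower in r595). Single libraries also stood at the extremes for many of the genes. Rosa26-edited 2 had the lowest CPM of all 11 libraries for 8 of the 30 genes (26.7%, against 15.1% of all genes tested), which were Dync1h1, Yy1, Tecpr2, Cdc42bpb, Ppp1r13b, Xrcc3, Rcor1 and Ccdc85c. It had the highest CPM for Ppp2r5c, Hsp90aa1, Wdr25 and Trmt61a (13.3%, near the 11.7% of all genes tested). Its neutrophil markers summed to 31.5 TPM, against 5.84 to 20.9 TPM in the other libraries, and its erythroid markers to 22.8 TPM, against 3.99 to 10.9 TPM. Their part in these values was not tested. The median effective length was 3994 bases in the set of 8 and 1840 bases in the set of 4. Among the 30 genes, the 9 with an effective length of at least 3162 bases had a median log2 fold change of 0.23, where all 3598 tested genes of such length had -0.03. With effective lengths as offsets the log2 fold change was 0.45 for Yy1 and 0.15 for Rcor1, but 0.14 for Ppp1r13b, 0.24 for Cdc42bpb, 0.10 for Zfp839, 0.21 for Dync1h1 and -0.22 for Tecpr2, while Ccdc85c had 0.23 and Traf3 0.05. The part of transcript length in these values was not tested further.

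The change was then set against distance. Across the 30 genes Spearman's rho between distance from the domain and log2 fold change was 0.03, and with the size of the log2 fold change it was -0.12, both as descriptions. The 15 genes within 1 Mb had a median of 0.02 and the 15 beyond it 0.04. The 8 tested genes on the Dlk1 side had a median of 0.04 and the 22 on the Dio3 side 0.03. The RefSeq window of 2 Mb held 10 further tested genes, of which 0 had an unadjusted p under 0.05 in edgeR and none was called by its adjusted p. They ranged from -0.76 ± 0.61 for Kif26a to 0.77 ± 0.60 for Gm35558, both below 1 CPM, with a median of 0.32 and 7 of 10 positive. The 6 of them within 1 Mb had a median of 0.44, with 5 positive. Of these 6, Slc25a29 and Slc25a47 overlap no listed gene, with log2 fold changes of 0.72 ± 0.40 and 0.30 ± 0.28. Slc25a47 had a mean of 145.1 CPM in WRE-edited and 103.5 CPM in Rosa26-edited libraries. Gm19605 (-0.08) overlaps the listed Ppp2r5c, and Gm35558 (0.77) overlaps Dync1h1. Mpc1-ps (0.33) overlaps Zfp839, and Rps19-ps6 (0.54) overlaps Tecpr2. Reads of such shared stretches cannot be assigned with certainty without the strand setting. For comparison, 438 other tested genes of chromosome 12 outside the domain had a median of -0.02.

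Promoters were searched because the edited element is a β-catenin site, and because Yy1 is both a neighbour of the domain and a DNA-binding factor. RefSeq held 46 promoters for 30 of the 34 genes. The TCF/LEF core CTTTGA, on either strand, was in 0 of the 46, against 16.0% of all promoters. The 46 were richer in G and C, with a median of 66.5% against 52.7%, and no match says only that these letters are not in this window. The YY1 core CCATNTT, on either strand, was in 9 of the 46 (19.6%, against 16.1% of all promoters). Overlapping entries of Mark3 share the same core, so the 9 are not all separate sites. They belong to 7 of the 30 genes, which are Amn, Eml1, Klc1, Mark3, Mok, Ppp2r5c and Wdr20. Of these, the tested genes had log2 fold changes of -0.27 for Eml1, -0.02 for Klc1, 0.04 for Mark3, 0.02 for Ppp2r5c and 0.08 for Wdr20. The promoters of Ppp2r5c, the gene nearest the domain, and of Wdr20 show the contrast between a start with the core and one without it. Capitals mark the YY1 core, here on the minus strand, and all 3 stretches run 5′ to 3′ on the plus strand (RefSeq, GRCm38.p6), at chr12:110447272-110447571, chr12:110485547-110485846 and chr12:110737750-110738049 in the order given. All 3 begin after the annotated gene starts, 110447144 for Ppp2r5c and 110735025 for Wdr20.
Ppp2r5c, first start: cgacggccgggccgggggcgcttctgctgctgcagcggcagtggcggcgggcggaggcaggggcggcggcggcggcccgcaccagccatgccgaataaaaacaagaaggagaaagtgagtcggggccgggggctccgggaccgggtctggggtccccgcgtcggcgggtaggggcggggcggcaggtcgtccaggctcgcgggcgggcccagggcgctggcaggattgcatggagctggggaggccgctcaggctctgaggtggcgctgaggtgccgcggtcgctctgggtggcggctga
Ppp2r5c, second start: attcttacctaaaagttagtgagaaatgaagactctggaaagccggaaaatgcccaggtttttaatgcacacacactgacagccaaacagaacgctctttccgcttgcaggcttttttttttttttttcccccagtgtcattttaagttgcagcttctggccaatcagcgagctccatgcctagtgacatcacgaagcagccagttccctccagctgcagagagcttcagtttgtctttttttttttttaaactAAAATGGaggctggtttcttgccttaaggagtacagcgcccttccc
Wdr20: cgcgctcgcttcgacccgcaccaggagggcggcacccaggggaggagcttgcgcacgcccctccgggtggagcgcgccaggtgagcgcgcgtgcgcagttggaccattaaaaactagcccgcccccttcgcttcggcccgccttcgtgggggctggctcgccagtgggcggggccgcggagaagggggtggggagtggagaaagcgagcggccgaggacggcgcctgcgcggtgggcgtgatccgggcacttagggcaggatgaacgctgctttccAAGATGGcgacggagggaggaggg
With the start site of the promoter entry as base 1, the capitals begin at base 5 for the second start of Ppp2r5c. For Wdr20 they begin at base 27, both as read on the printed strand. These matches are a description of letters and not evidence of binding.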

How the data were processed

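Each RNA-seq library has 1 deposited table of expected counts by Ensembl gene, and the submitters' processing notes name STAR 2.7.6a, RSEM 1.3.1 and GRCm38. The same deposited tables hold TPM and, as other values, effective lengths in bases, per the file headers. No source used here names the annotation version or the strand setting. The deposited normalized matrix, miRNA counts and design tables were not used.

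Expected counts were rounded and tested on all genes in R 4.3.3 with edgeR 4.0.16: filterByExpr by group (minimum count 10, minimum total 15), TMM factors, a robust quasi-likelihood fit with run and group (7 residual degrees of freedom), two-sided, Benjamini-Hochberg at 0.05. SEs and 95% intervals came from the quasi-likelihood statistic. Differences within runs used log2 CPM with a prior count of 2. DESeq2 1.42.0, other designs and leaving out libraries were alternatives. The code was tested on simulated data. The smallest chi-square per degree of freedom between replicates was 25.4, far above sampling noise, so none were merged. This value cannot show that libraries came from separate animals, and WRE-edited 4 and 6, which share a number in their names, also differ by run. Of 55536 identifiers, 55450 matched a gene name. Coordinates and promoters came from RefSeq tables of GRCm38.p6, matched by symbol, 1-based.

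The members and gene lists were chosen with earlier results of these data known. Genes given in full were those at an unadjusted p under 0.05, the 2 highest and 2 lowest, the 3 nearest on each side and the 3 most abundant. Promoters were to be printed where they held the TCF/LEF core. None did, so those shown, and the genes whose library values accompany the run and marker comparisons, were picked after their values were seen.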

Additional observations from a re-analysis of the deposited data

Results flagged for a closer look

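Among 62 sets of values (31 flanking genes with at least 10 counts in a library, in 2 groups), 3 single libraries stood far from the rest of their group by Dixon's test, about as many as chance gives at 1 in 20. Wars had 16.5 CPM in WRE-edited 3, above the other 5 WRE-edited libraries, which ran from 12.04 to 13.6 CPM. Tnfaip2 had 33.9 CPM in Rosa26-edited 5, where the other Rosa26-edited libraries had 10.7 to 15.7 CPM. Bag5 had 10.04 CPM in Rosa26-edited 2, where the others had 8.69 to 8.997 CPM.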

How the results depend on the processing

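The count past the adjusted threshold was 0 of the 30 tested flanking genes in all 20 alternatives with a test. The lowest edgeR adjusted p among them was 0.224. Without a filter on low counts too, only these 30 were counted. All genes called by edgeR numbered 1 in the reported fit, 450 without that filter and 2 with a replicate block and the run term. They numbered 0 without the run term, in r770 alone and in 6 of 11 fits leaving out 1 library (WRE-edited 2, 3, 4, 5 or 6, or Rosa26-edited 2). DESeq2 called 81. The count at an unadjusted p under 0.05, 1 as reported, was 3 without a filter (8.53% of all genes), 2 with a replicate block and the run term (4.20% of all genes), 0 with the replicate block but without the run term, 0 after adding up WRE-edited 4 and 6 (which share a number in their library names) with no run term, and 0 to 4 leaving out 1 library. The 4 (13.3%) came without Rosa26-edited 3, where 13.8% of all genes passed. Yy1 kept an unadjusted p under 0.05 in 8 of 20 alternatives, with adjusted p from 0.224 to 0.998. The replicate numbers showed no pairing of the libraries (correlations of deviations -0.25 to 0.15 over 5 numbers). This check cannot exclude pairing, since numbers 4 and 5 set libraries of r711 against those of r595. Each of these sets holds 2 libraries, which fixes the same value, 0.15, for both numbers. The median log2 fold change, 0.03, was 0.13 in r770 alone, 0.14 with a replicate block and the run term, -0.01 with that block but without the run term, and 0.00 to 0.12 leaving out 1 library. Without WRE-edited 6 the effect rests on r770. With a 5 Mb window, 4 of 39 further genes (10.3%) had an unadjusted p under 0.05, near the 10.1% of all genes, against 0 of 10 within 2 Mb.

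Of 630 gene values under alternatives, 540 kept their sign and 90 did not, and the cause was not tested. With a replicate block and the run term the log2 fold change was -0.01 for Mark3, -0.03 for Ppp2r5c, 0.25 for Evl, -0.03 for Wars, 0.19 for Tecpr2, 0.23 for Exoc3l4 and -0.11 for Setd3. In r770 alone it was -0.02 for Ppp2r5c, 0.21 for Evl, -0.01 for Wars, 0.15 for Tecpr2, 0.13 for Exoc3l4 and -0.09 for Setd3. With effective lengths it was -0.14 for Ccnk, 0.23 for Exoc3l4, -0.19 for Tnfaip2, -0.06 for Wdr20 and -0.23 for Trmt61a. In r595 alone it was -0.51 for Ccnk, -0.12 for Zfp839, -0.59 for Traf3, -0.28 for Tnfaip2, 0.69 for Zfyve21, 0.07 for Klc1 and -0.17 for Trmt61a. Without the run term it was -0.24 for Zfp839, -0.17 for Traf3, 0.03 for Exoc3l4, -0.43 for Tnfaip2, 0.05 for Eif5, -0.03 for Setd3, 0.14 for Eml1, -0.04 for Trmt61a and 0.00 for Ccdc85c. With the replicate block but without the run term it was -0.31 for Zfp839, -0.13 for Traf3, -0.05 for Cdc42bpb, 0.09 for Exoc3l4, -0.50 for Tnfaip2, 0.12 for Eif5, -0.05 for Ppp1r13b, -0.07 for Setd3, 0.34 for Eml1 and -0.12 for Ccdc85c. With the libraries WRE-edited 4 and 6 added together it was -0.27 for Zfp839, -0.15 for Traf3, 0.11 for Exoc3l4, -0.44 for Tnfaip2, 0.07 for Eif5, -0.05 for Setd3, 0.17 for Eml1, -0.02 for Trmt61a and -0.04 for Ccdc85c. Leaving out 1 library changed the sign of 14 genes, with -0.10 to 0.31 for Ccnk, -0.25 to 0.20 for Evl, -0.29 to 0.17 for Exoc3l4, -0.07 to 0.06 for Klc1, -0.01 to 0.07 for Mark3, -0.04 to 0.09 for Ppp2r5c, -0.02 to 0.26 for Rcor1, -0.10 to 0.07 for Setd3, -0.35 to 0.14 for Tecpr2, -0.03 to 0.30 for Tnfaip2, -0.11 to 0.24 for Traf3, -0.08 to 0.14 for Trmt61a, -0.02 to 0.20 for Wars and -0.43 to 0.04 for Zfyve21.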
